A study of Rattus norvegicus with 12 samples.

Results

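The transcripts described here are 10 genes that mark the liver sinusoidal endothelium, the lining of the hepatic capillaries: Stab1, Stab2, Lyve1, Kdr, Fcgr2b, Flt4, Oit3, Clec4g, Dnase1l3 and Bmp2. Their measurements are all probe sets that the platform's annotation gives to exactly 1 of these symbols, which were 11 of 31042 probe sets and covered 8 of the 10 genes. No probe set annotated to Oit3 or Clec4g alone was found, and those genes have no value below. The series holds 12 Affymetrix Rat 230 2.0 arrays with 1 colour each, 3 per group, of RNA from male adult Sprague-Dawley rats. Control rats were injected with distilled water, and no source used here gives when they were killed. The other 3 groups received diethylnitrosamine (DEN, a carcinogen that alkylates DNA) intraperitoneally at 70 mg/kg, in a schedule of 1 injection a week over 10 weeks, and were killed in week 5 (hepatitis), weeks 13 to 14 (cirrhosis) or weeks 23 to 24 (hepatocellular carcinoma, HCC), counted after DEN treatment. Where that count starts is not stated; if it starts with the first injection, week 5 lies within the schedule, so the number of injections the hepatitis group had received is unknown. The tissue is labelled liver on all arrays, while the series description speaks of HCC tissue for the last group. Nothing says that each array holds a separate rat, so a p-value measures the spread between these samples, which may be partly technical.

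Sinusoidal endothelial cells form a fenestrated lining without a continuous basement membrane, and they take up waste from the blood through scavenger receptors. Stab1 and Stab2 encode stabilins, large scavenger receptors, Lyve1 encodes a hyaluronan receptor, and Fcgr2b encodes an inhibitory Fc receptor that clears immune complexes. Kdr and Flt4 encode receptors of vascular endothelial growth factors, Dnase1l3 a secreted nuclease that degrades extracellular DNA, and Bmp2 a ligand that, with Bmp6 from the same cells, drives hepcidin expression in hepatocytes. In chronic liver injury these cells can lose their fenestrae and gain features of continuous capillaries, a change known as capillarisation.

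Median intensity was 28.69 to 30.94 on the 12 arrays. Correlations between arrays of a group were 0.9895 to 0.993 in control, 0.985 to 0.9876 in hepatitis, 0.9958 to 0.9967 in cirrhosis and 0.9515 to 0.9654 in HCC, so the HCC arrays differed most among themselves. The 3' over 5' difference of the Gapdh control probe sets, a sign of RNA or labelling quality, was 1.36, 2.46 and 3.20 on the log2 scale in HCC arrays 1, 2 and 3, against 0.381 to 1.03 in the other 9 arrays. This difference moves with the HCC group in every comparison with HCC. Every control array, the lowest at 0.871, also exceeded hepatitis array 3 (0.697) and cirrhosis array 1 (0.559), the highest of their groups. Comparisons of these stages with control therefore carry a gap in this measure too, of opposite sign. The same measure from Actb control probe sets was 3.90, 4.51 and 5.14 in HCC arrays 1, 2 and 3, against 2.18 to 2.78 in the other 9. It overlapped between control and hepatitis (control array 2 at 2.49, hepatitis array 3 at 2.61). Every control array lay above every cirrhosis array in it, though narrowly (control array 2 at 2.488, cirrhosis array 3 at 2.486). The part of RNA or labelling quality in the results was not tested. All tests used limma on log2(intensity + 16) over all 31042 probe sets and 12 arrays, and a probe set counts as called where its p, adjusted by the Benjamini-Hochberg method over all of them, is under 0.05. The comparisons with control share the same 3 control arrays, and those with HCC the same 3 HCC arrays.

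Promoter sequences are shown for 4 members that fell in HCC: the stabilins Stab1 and Stab2, Lyve1, and the growth factor receptor gene Kdr. RefSeq (assembly GRCr8) gave a window from 250 bases before to 50 bases after the annotated start for 8 of the 10 members, and Bmp2 and Fcgr2b are named only. Capitals mark 2 kinds of motif searched on both strands: GATA hexamers, which were AGATAA or AGATAG and TGATAA or TGATAG, and the ETS-type hexamer AGGAAG. Stab1 lies at chr16:6367310-6367609 on the minus strand, Stab2 at chr7:23320513-23320812 on the minus strand, Lyve1 at chr1:174410928-174411227 on the minus strand and Kdr at chr14:32571813-32572112 on the plus strand. The Stab2 window belongs to a start 22071 bases inside the annotated 5' end of that gene.
Stab1 promoter: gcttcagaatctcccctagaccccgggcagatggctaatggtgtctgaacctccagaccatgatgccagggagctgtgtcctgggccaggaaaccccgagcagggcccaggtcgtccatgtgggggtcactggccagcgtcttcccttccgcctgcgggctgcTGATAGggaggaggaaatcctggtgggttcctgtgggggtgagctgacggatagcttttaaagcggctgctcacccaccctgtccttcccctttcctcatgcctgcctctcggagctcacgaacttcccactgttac
Stab2 promoter: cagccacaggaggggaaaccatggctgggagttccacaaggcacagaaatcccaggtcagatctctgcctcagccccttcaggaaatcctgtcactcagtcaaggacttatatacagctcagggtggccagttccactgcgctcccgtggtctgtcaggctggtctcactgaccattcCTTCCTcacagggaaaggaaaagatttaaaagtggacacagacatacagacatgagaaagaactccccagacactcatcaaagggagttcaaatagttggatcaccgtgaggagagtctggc
Lyve1 promoter: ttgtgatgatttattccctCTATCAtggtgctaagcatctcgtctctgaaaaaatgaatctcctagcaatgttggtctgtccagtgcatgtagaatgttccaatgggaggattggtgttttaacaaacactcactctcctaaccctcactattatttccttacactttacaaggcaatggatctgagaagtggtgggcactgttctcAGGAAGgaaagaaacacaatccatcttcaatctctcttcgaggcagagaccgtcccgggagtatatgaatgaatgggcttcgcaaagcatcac
Kdr promoter: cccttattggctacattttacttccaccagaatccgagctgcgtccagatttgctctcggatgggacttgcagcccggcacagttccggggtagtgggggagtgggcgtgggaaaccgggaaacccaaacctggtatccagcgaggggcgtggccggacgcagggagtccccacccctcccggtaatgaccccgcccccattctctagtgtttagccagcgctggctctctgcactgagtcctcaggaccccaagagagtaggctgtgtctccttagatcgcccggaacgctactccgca
The Stab1 window held 1 GATA hexamer and no AGGAAG, the Stab2 window 1 AGGAAG (as its complement CTTCCT) and no GATA hexamer, the Lyve1 window 1 of each, and the Kdr window neither. Of the 8 member windows 5 held a GATA hexamer, against 30.3% of 33469 rat promoter windows of the same length. AGGAAG was in 5 of 8, against 34.5% of all windows. In Oit3 a match of 1 motif overlapped a match of the other. A match is a run of letters and not a shown binding site.

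Nearly all sinusoidal markers fell in HCC, while 1 of them, Stab1, was called in cirrhosis and none in hepatitis. In HCC 10 of the 11 member probe sets were called lower than control and none higher. Of all probe sets 29.8% were called, 14.1% lower and 15.7% higher; lower calls made up 27.8% of those with a mean intensity of at least 64. The same 10 had all 3 HCC arrays below all 3 control arrays, against 19.2% of all probe sets. Flt4 was the exception. The median difference of the members was -1.57 (log2), and that of all probe sets was 0.01. In this bulk tissue, fewer endothelial cells and less RNA per cell cannot be told apart.

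**Figure D1:**
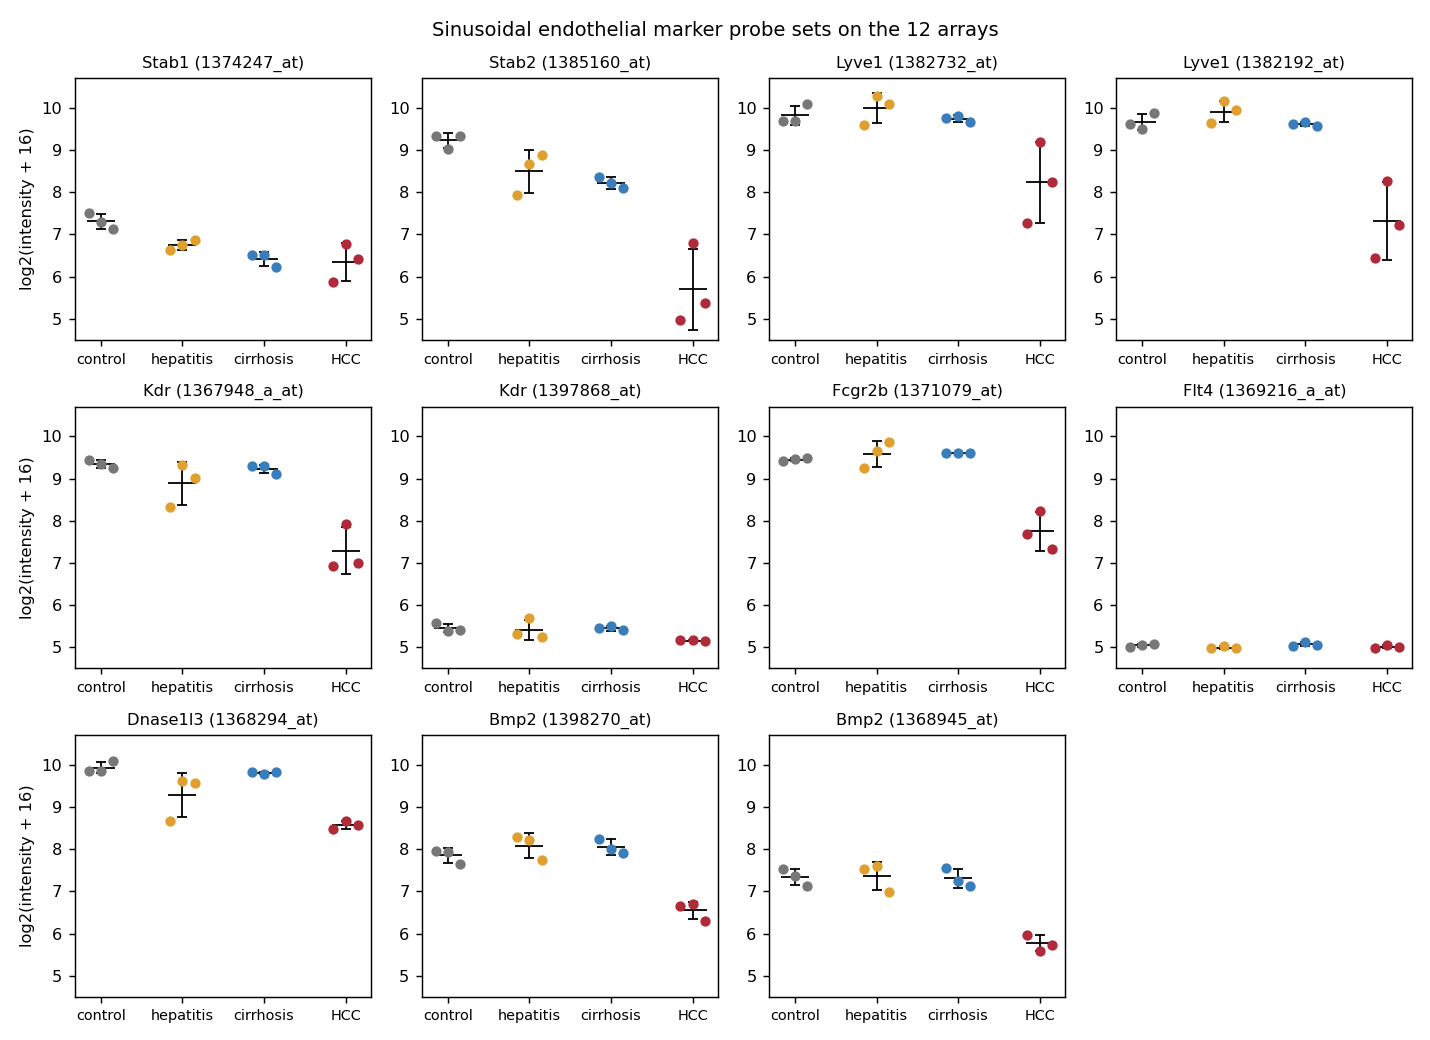
Intensity (log2 of intensity + 16, vertical axis) of the 11 member probe sets on each array, by stage from control to HCC; points are single arrays, horizontal lines group means and bars the SD (n = 3). For 10 of the 11 probe sets, all but Flt4, the 3 HCC arrays lie below the 3 control arrays.

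Among the members, the scavenger receptor gene Stab2 had the largest difference in HCC. Its intensity was 15.2, 94.5 and 25.2 in HCC arrays 1, 2 and 3, against 630.06, 507.49 and 630.94 in control arrays. The HCC mean was 7.63% of the control mean, and the difference was -3.53 ± 0.41 (SE, log2; limma adjusted p = 0.000332). HCC arrays 1 and 3 were at or near the added constant of 16, which lessens the fold change of dim values, while array 2 was brighter than both others. The difference was -4.07 without HCC array 2, the one nearest to control, -3.16 without array 1 and -3.36 without array 3. It was called in each of these fits. Against cirrhosis, where Stab2 was 311.78, 281.0 and 257.15, HCC was lower, at -2.52 ± 0.41 (limma adjusted p = 0.00147).

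Before HCC, Stab2 was already lower than control on all 3 arrays at each earlier stage. Among all probe sets, 14.7% lay so in hepatitis and 17.9% in cirrhosis. In these data Stab2 and its array values were as follows. Stab2 averaged 589.5 ± 71.0 in control, 359 ± 118 in hepatitis and 283 ± 27.4 in cirrhosis (SD, n = 3 each). Neither difference passed the test over all probe sets (limma adjusted p = 0.455 in hepatitis and 0.25 in cirrhosis), although the cirrhosis mean was 48.1% of control. In a fit of the cirrhosis and control arrays alone, without the wide HCC spread, the cirrhosis difference of -1.01 had an adjusted p of 0.00284. That fit called 4949 of 31042 probe sets, against 1125 in the fit of all 12 arrays. The Stab2 difference in cirrhosis was also called without HCC array 2 (adjusted p = 0.0407). Of 19 alternative settings, only these 2 called it.

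Stab1, the other stabilin gene, had intensities below control from hepatitis on. The hepatitis difference of -0.55 was not called (limma adjusted p = 0.206). Its intensity was 165.6, 140.2 and 124.4 in control, 83.8, 92.3 and 101.7 in hepatitis, 75.0, 75.1 and 58.7 in cirrhosis, and 42.4, 93.4 and 69.2 in HCC. All arrays of the 3 DEN groups lay below all 3 control arrays. Among all probe sets, 14.7% lay so in hepatitis, 17.9% in cirrhosis and 19.2% in HCC. It was the only member called in cirrhosis, at -0.90 ± 0.20 (limma adjusted p = 0.0428), where 3.62% of all probe sets were called. HCC was lower than control, at -0.96 ± 0.20 (adjusted p = 0.0061). HCC and cirrhosis overlapped, with a difference of -0.06 (adjusted p = 0.852). The call in cirrhosis was lost when any 1 control or cirrhosis array or hepatitis array 1 or 2 was left out (adjusted p 0.0566 to 0.162). The call in HCC was lost in a fit of the HCC and control arrays alone (adjusted p = 0.0556).

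Lyve1, the hyaluronan receptor, was measured by 2 probe sets, and both fell in HCC. Probe set 1382192_at had 70.381, 294.49 and 133.11 in HCC, against 768.12, 705.78 and 922.98 in control, and fell by 2.35 on the log2 scale (SE 0.37, limma adjusted p = 0.00135). Probe set 1382732_at had 138.73, 570.0 and 285.2 in HCC, against 812.67, 805.78 and 1072.2 in control, and fell by 1.59 (SE 0.39, adjusted p = 0.0135). On both, HCC array 2 was highest and array 1 lowest. Lyve1 was not called in hepatitis or cirrhosis, and 1382192_at averaged 799 ± 112 in control, 959.7 ± 172 in hepatitis and 771 ± 28.6 in cirrhosis (SD, n = 3 each). The second probe set lost its call in a fit of the HCC and control arrays alone (adjusted p = 0.0862), and of the HCC and cirrhosis arrays alone (0.0793).

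Fcgr2b, the inhibitory Fc receptor gene, fell in HCC. Its intensity was 190.43, 283.96 and 143.67 in HCC, against 662.13, 685.92 and 697.63 in control, all HCC arrays lying far below. The difference was -1.70 ± 0.21 (limma adjusted p = 0.000395), and against cirrhosis it was -1.86 (adjusted p = 0.000192). In cirrhosis its 3 arrays, at 762.84, 766.29 and 763.67, lay all above control, as in 16.3% of all probe sets, and very close together. The difference of 0.16 was not called over the 12 arrays. In a fit of the 2 groups alone it was (adjusted p = 0.034), and that fit called 4949 of 31042 probe sets. Fcgrt, the neonatal Fc receptor that protects antibodies from breakdown, was the member of a list of other Fc receptors that was called in HCC (1 of 4 measured), lower, at -1.51 (adjusted p = 0.00132).

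The growth factor receptor gene Kdr fell in HCC. Its main probe set had 106.05, 227.99 and 111.74 in HCC, against 684.22, 635.64 and 591.98 in control. The difference was -2.06 ± 0.29 (limma adjusted p = 0.000773), and HCC against cirrhosis gave -1.94 (adjusted p = 0.000881). In hepatitis the arrays spread widely, at 306.39, 625.55 and 499.03, with array 1 far below the other 2, and the difference of -0.46 was not called. The second probe set, 1397868_at, was dim everywhere, at 19.268 to 19.951 in HCC and 26.01 to 31.7 in control. Its HCC call (-0.30, adjusted p = 0.0476) was lost in 10 of 12 fits that left out 1 array. Flt4, the receptor gene best known for lymphatic growth, was at or near background on all arrays, between 15.368 and 18.749, and nothing can be read from its difference of -0.03 (adjusted p = 0.597).

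Of the wider vascular growth factor list, 8 of 8 genes were measured and 1 was called in HCC, Nrp2, a co-receptor, at 0.58 higher (limma adjusted p = 0.0186), while no gene was called lower. Over all probe sets, 15.7% were called higher and 14.1% lower. No gene was called higher without control array 1, control array 2 or HCC array 3, or in a fit of the HCC and control arrays alone. For Vegfa, a ligand of Kdr chosen after its values were seen, the difference was -0.26 (adjusted p = 0.341). No gene of the list was called in hepatitis or cirrhosis. The smallest p values belonged to Vegfc in hepatitis (0.36, adjusted p = 0.267) and Vegfb in cirrhosis (0.87, adjusted p = 0.0567).

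Dnase1l3, the nuclease, fell in HCC with little spread between arrays. Its intensity was 339.55, 388.67 and 365.54 in HCC, against 911.84, 907.68 and 1072.2 in control. HCC was 37.8% of control, and the difference was -1.36 ± 0.21 (limma adjusted p = 0.00123). Against cirrhosis it was -1.25 (adjusted p = 0.00165). In hepatitis it was 393.36, 772.26 and 739.81, all below control, as in 14.7% of all probe sets. Its limma p of 0.0119 before adjustment became 0.153 after it (difference -0.65 ± 0.21). Without hepatitis array 1, which was lowest of its group on 8 of the 11 member probe sets, the difference was -0.34. In cirrhosis Dnase1l3 averaged 886 ± 15.8, against 964 ± 93.8 in control (SD, n = 3 each), and was not called.

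Bmp2, the hepcidin-inducing ligand, fell in HCC on both of its probe sets. Probe set 1398270_at had 84.165, 87.292 and 63.059 in HCC, against 233.66, 230.03 and 184.84 in control, a difference of -1.30 ± 0.17 (limma adjusted p = 0.000518). Probe set 1368945_at had 46.858, 32.382 and 37.071 in HCC, against 167.61, 147.57 and 124.49 in control, a difference of -1.57 ± 0.18 (adjusted p = 0.00032). No HCC array reached any control array. Neither was called in hepatitis or cirrhosis, and 1398270_at averaged 216 ± 27.2 in control, 259 ± 53.7 in hepatitis and 251 ± 34.1 in cirrhosis (SD, n = 3 each).

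Of the BMP and iron pathway list, 18 of 20 genes were measured, of which 6 were called higher and 5 lower in HCC (list median -0.10). Over all probe sets, 15.7% were called higher and 14.1% lower, and 27.8% lower at a mean intensity of at least 64. A fit of the HCC and control arrays alone called 2 higher and 2 lower; without HCC array 3, 3 were higher, and without control array 1 or 2, 3 were lower. Id3, a transcription inhibitor that BMP signalling induces, had 78.364, 49.792 and 28.794 in HCC, against 307.72, 311.72 and 343.09 in control (-2.37 ± 0.22, limma adjusted p = 0.00012), and its HCC arrays were all far below control. Tfr2, a hepatocyte iron sensor, had 220.36, 598.17 and 328.69 in HCC, against 875.98, 833.07 and 900.13 in control (-1.26, adjusted p = 0.00604). Tfrc, the cellular transferrin receptor, was higher by 0.93 (adjusted p = 0.0144), and Id2 lower, at -0.87 (adjusted p = 0.021). A further pair of genes was chosen after their values were seen. Hamp, which encodes hepcidin, had 2294, 1731 and 3185 in HCC, against 4421, 4428 and 3499 in control; its difference of -0.81 had an adjusted p of 0.0303, and of 0.118 after quantile normalization. Bmp6, the other sinusoidal ligand, differed by -0.07 (adjusted p = 0.658).

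**Figure D2:**
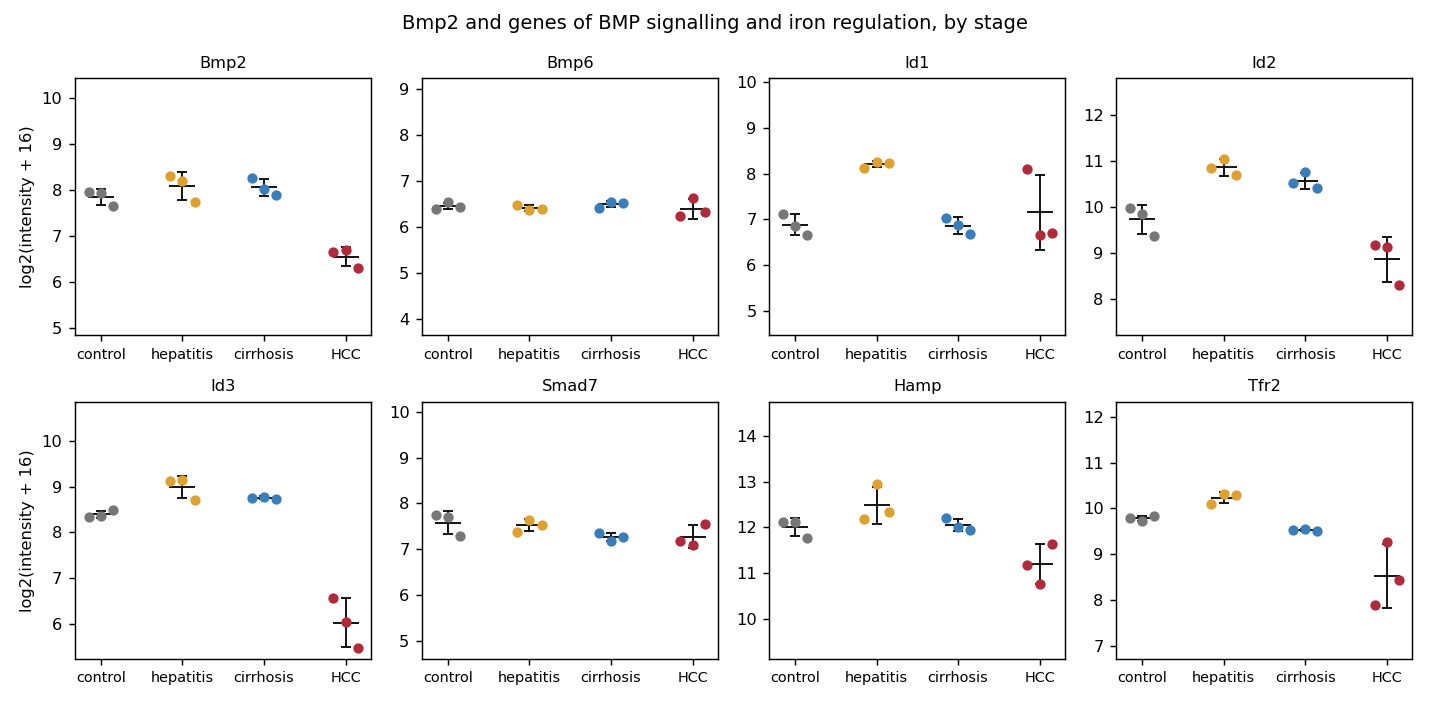
Intensity (log2 of intensity + 16, vertical axis) of Bmp2 and genes of BMP signalling and iron regulation on each array, by stage from control to HCC; points are single arrays, horizontal lines group means and bars the SD (n = 3). Id1, Smad7, Hamp and Bmp6 were chosen after their values were seen. All HCC arrays lie below all control arrays for Bmp2, Id2, Id3, Hamp and Tfr2, as in 19.2% of all probe sets. HCC and control overlap for Bmp6, Id1 and Smad7. The 6 genes of the BMP and iron pathway list called higher in HCC, Tfrc among them, are not shown.

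In hepatitis no member passed the threshold, where 2.95% of all probe sets did, and 2 members had an unadjusted limma p under 0.05, Dnase1l3 and Stab1. In 3 of the 11 probe sets, Stab1, Stab2 and Dnase1l3, all hepatitis arrays lay below all control arrays, against 14.7% of all probe sets. In cirrhosis the same 3 lay below and Fcgr2b above, against 17.9% below and 16.3% above among all probe sets. The median difference over the 11 member probe sets was -0.05 in hepatitis and -0.04 in cirrhosis. Over the 8 member genes, each at its brightest probe set, it was -0.26 in hepatitis and -0.10 in cirrhosis. Between cirrhosis and hepatitis no member was called, where 0.651% of all probe sets were, and 1 (Dnase1l3, 0.53 higher) had an unadjusted limma p under 0.05. In HCC against cirrhosis, 8 of the 11 were called lower, where 32.2% of all probe sets were called, 14.8% lower, and 26.5% of those with a mean intensity of at least 64 were lower. All 3 HCC arrays lay below all 3 cirrhosis arrays for 9 of 11, against 20.8% of all probe sets, and the median was -1.51. Stab1, Flt4 and the dim Kdr probe set were not called there. A test for any difference among the 4 stages called 9 of 11, against 33.2% of all probe sets.

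**Figure D3:**
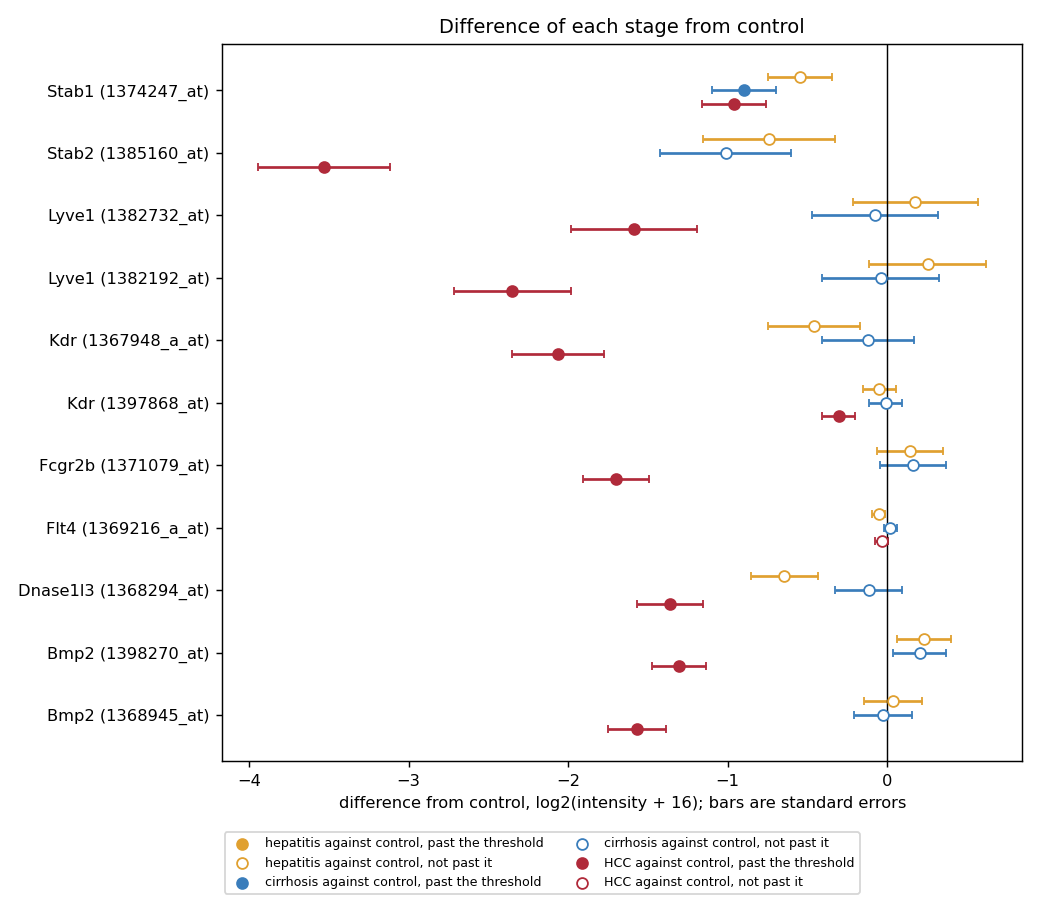
Difference from control (log2, with its standard error from limma, horizontal axis) of each member probe set in hepatitis, cirrhosis and HCC, with filled symbols for called ones. HCC values reach -3.53 for Stab2, and 1 earlier difference is called, Stab1 in cirrhosis at -0.90.

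Of 16 measured of 18 other sinusoidal genes, 10 were called lower in HCC and 1 higher, with a median of -0.62. Over all probe sets, 14.1% were called lower and 15.7% higher. Lower calls made up 27.8% of those with a mean intensity of at least 64. Mrc1, the mannose receptor, which macrophages also express, was lower, at -1.91 ± 0.18 (limma adjusted p = 0.00012), Cd36, a fatty acid transporter, at -1.44 (adjusted p = 0.0133), Gpr182, an atypical chemokine receptor, at -1.30 (adjusted p = 0.0148) and Ehd3, a membrane trafficking protein, at -1.16 (adjusted p = 7.9e-05). Plxnc1, the 1 gene called higher and named after its value was seen, differed by 0.76 (adjusted p = 0.00836), and 5 of the 16 were not called. Eng, Flt1, Nrp1 and Bmp6 each stand in 2 of the lists given here.

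Genes common to endothelia were described beside the members. Of 16 measured pan-endothelial genes 4 were called lower in HCC and none higher (median -0.13): Ptprb, a receptor phosphatase, at -1.76 (limma adjusted p = 0.000221), Clec14a at -1.13 (adjusted p = 0.000694), Eng, a BMP co-receptor, at -0.75 (adjusted p = 0.00015) and Mmrn2 at -0.43 (adjusted p = 0.0262). Shares called lower were 14.1% of all probe sets and 27.8% of those with a mean intensity of at least 64. Pecam1, the junction protein of most endothelia, chosen after its values were seen, averaged 114 ± 19.3 in HCC and 108 ± 11.1 in control (SD, n = 3 each). Without HCC array 2, 7 of the 16 were called lower. Over the 7 member genes with a mean intensity of at least 64, the mean log2 level minus that of 9 pan-endothelial genes with such a mean was 1.59, 1.59 and 1.67 in control, 1.26, 1.68 and 1.52 in hepatitis, 1.55, 1.56 and 1.50 in cirrhosis, and 0.17, 0.58 and 0.10 in HCC. Probe sets have no common scale, so only the change of this value between arrays can be read. All 3 HCC arrays lay below the other 9, a description with no test, since the genes were chosen with earlier results known. The summed intensity of the pan-endothelial list was 995 to 1425 in HCC, against 1687 to 1864 in control.

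**Figure D4:**
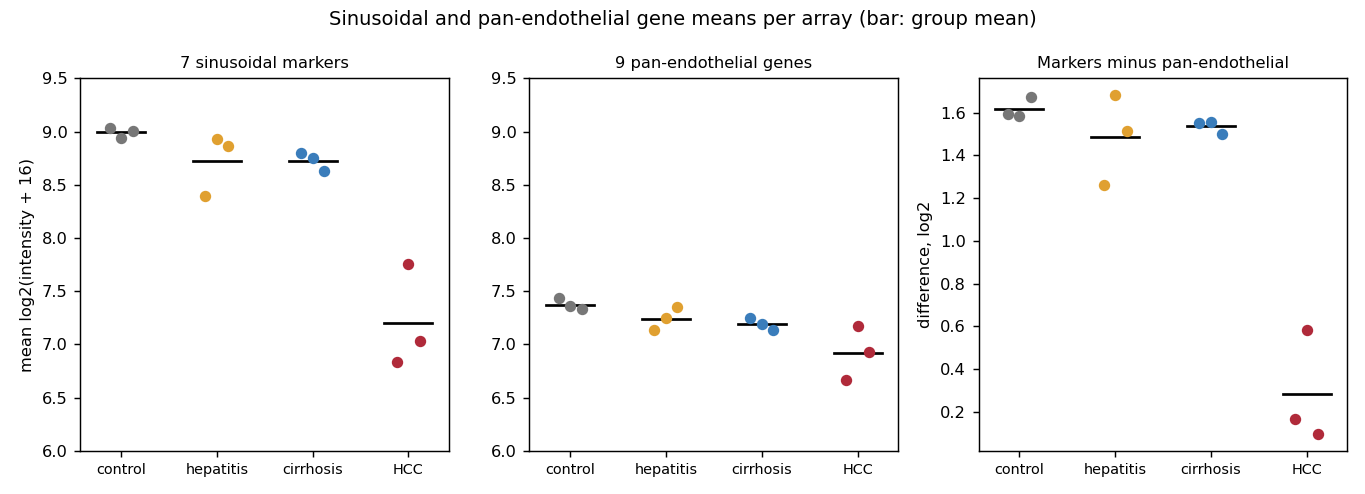
Mean log2(intensity + 16) of 7 member genes, of 9 pan-endothelial genes, and the first minus the second, on each array, by stage from control to HCC; bars are group means. In the difference the 3 HCC arrays lie at 0.10 to 0.58, and the other 9 lie at 1.26 to 1.68.

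Of 12 measured genes of capillarised or continuous endothelium, 6 were called higher in HCC and none lower (median 0.32). The shares over all probe sets were 15.7% higher and 14.1% lower. The basement membrane collagens Col4a2 and Col4a1 were higher by 1.17 ± 0.18 (limma adjusted p = 0.00122) and 0.96 (adjusted p = 0.00585), the proteoglycan Hspg2 by 0.80 (adjusted p = 0.000466) and the lipid-binding Fabp4 by 0.78 (adjusted p = 0.0318). These 4 are also made by cells other than endothelium. Without control array 3, 3 of the 12 were called higher. Also called higher were Lama4, by 0.62 (adjusted p = 0.0151), and Aplnr, by 0.34 (adjusted p = 0.0237). Aplnr was dim, with means of 19.3 in HCC and 11.7 in control. Vwf and Plvap, which are more restricted to endothelium and were chosen after their values were seen, differed by -0.01 and -0.18 and were not called. Cav1, Nid1, Sele and Vcam1 were not called either. Of the lymphatic list, 1 of 5 was called, Ccl21, a chemokine, at 0.72 higher (adjusted p = 0.00682).

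In hepatitis no pan-endothelial gene was called, and the smallest p was that of Esam (0.35, limma adjusted p = 0.0553). Over all probe sets, 2.95% were called in hepatitis and 3.62% in cirrhosis. Of the other endothelial lists, Fabp4 was called in hepatitis, higher by 1.84, as were Hgf, a hepatocyte growth factor, by 0.53, Ccl21 by 1.61 and Mmrn1 by 0.35. In cirrhosis Fabp4 was higher by 1.20, Hgf by 0.44, Ccl21 by 1.98 and Mmrn1 by 0.30, while Hspg2 was lower, at -0.49 and Eng at -0.33. Mmrn1 averaged 9.09 in control, 16.1 in hepatitis and 14.9 in cirrhosis. These means lie near or under the added constant of 16, so little can be read from its differences. Of the BMP list, Id2 was higher in hepatitis by 1.13. In cirrhosis Bmp4 and Smad1 were higher by 0.91 and 0.51, and Eng was counted there too. Of the stellate list, 2 of 8 genes were called in hepatitis, Rgs5, a regulator of G-protein signalling, higher by 1.75 (adjusted p = 0.0101) and Cygb by 0.91 (adjusted p = 0.0416), and 1 in cirrhosis, Cygb, higher by 0.88 (adjusted p = 0.0432). No gene of the macrophage, B cell, hepatocyte, hyaluronan or Fc receptor lists was called at either stage; among macrophage genes the smallest p belonged to Cd68 in hepatitis (0.97, adjusted p = 0.188) and Cd163 in cirrhosis (-0.59, adjusted p = 0.37).

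Macrophage markers moved with the HCC group too. Of 8 measured of 11, 5 were called lower and none higher (median -1.51), led by the Kupffer cell lectin Clec4f at -2.43 (limma adjusted p = 0.00118), Cd5l at -2.33 (adjusted p = 0.00304), the complement gene C1qb at -2.04 (adjusted p = 0.0127) and the haemoglobin scavenger receptor Cd163 at -1.96 (adjusted p = 0.00112). Their summed intensity was 1809 to 2223 in HCC, against 4388 to 9572 in control. Lower calls made up 14.1% of all probe sets and 27.8% of those with a mean intensity of at least 64. In a fit of the HCC and control arrays alone, 3 of the 8 macrophage genes were called. The part of this shift in the members' differences was not tested. B cell markers, which would also carry Fcgr2b, were at 125 to 136 in HCC against 149 to 193 in control, and none of 3 was called (smallest p for Cd22, -0.42, adjusted p = 0.0791).

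Stellate cell markers went both ways in HCC, with 3 of 8 higher and 2 lower. For each list in this paragraph, the shares over all probe sets were 15.7% higher and 14.1% lower. Lower calls made up 27.8% of probe sets with a mean intensity of at least 64. The vitamin A storage enzyme Lrat was lower, at -2.74 (limma adjusted p = 0.000269) and Ecm1 at -1.82 (adjusted p = 4.2e-05), while the collagen gene Col1a1 was higher by 1.37 (adjusted p = 0.0152) and Cygb by 1.14 (adjusted p = 0.00232). Of 6 hepatocyte markers 2 were lower, the male-specific Cyp2c11 at -3.40 (adjusted p = 0.00248) and Ttr at -0.67 (adjusted p = 0.0222). Alb, which encodes albumin and was chosen after its values were seen, averaged 14067 ± 1199 in HCC and 14814 ± 168 in control (SD, n = 3 each), near the highest intensities on the arrays. With any 1 control array, HCC array 1 or HCC array 3 left out, 1 of the 6 markers was called lower, as in a fit of the HCC and control arrays alone, and without HCC array 2, 3 were. Without HCC array 3, and after quantile normalization, 1 marker was called lower and 1 higher. Of 4 measured hyaluronan genes 2 were higher and none lower, the hyaluronan receptors Hmmr at 1.42 (adjusted p = 0.00206) and Cd44 at 1.17 (adjusted p = 0.00978); a fit of the HCC and control arrays alone called 1 of them.

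**Figure D5:**
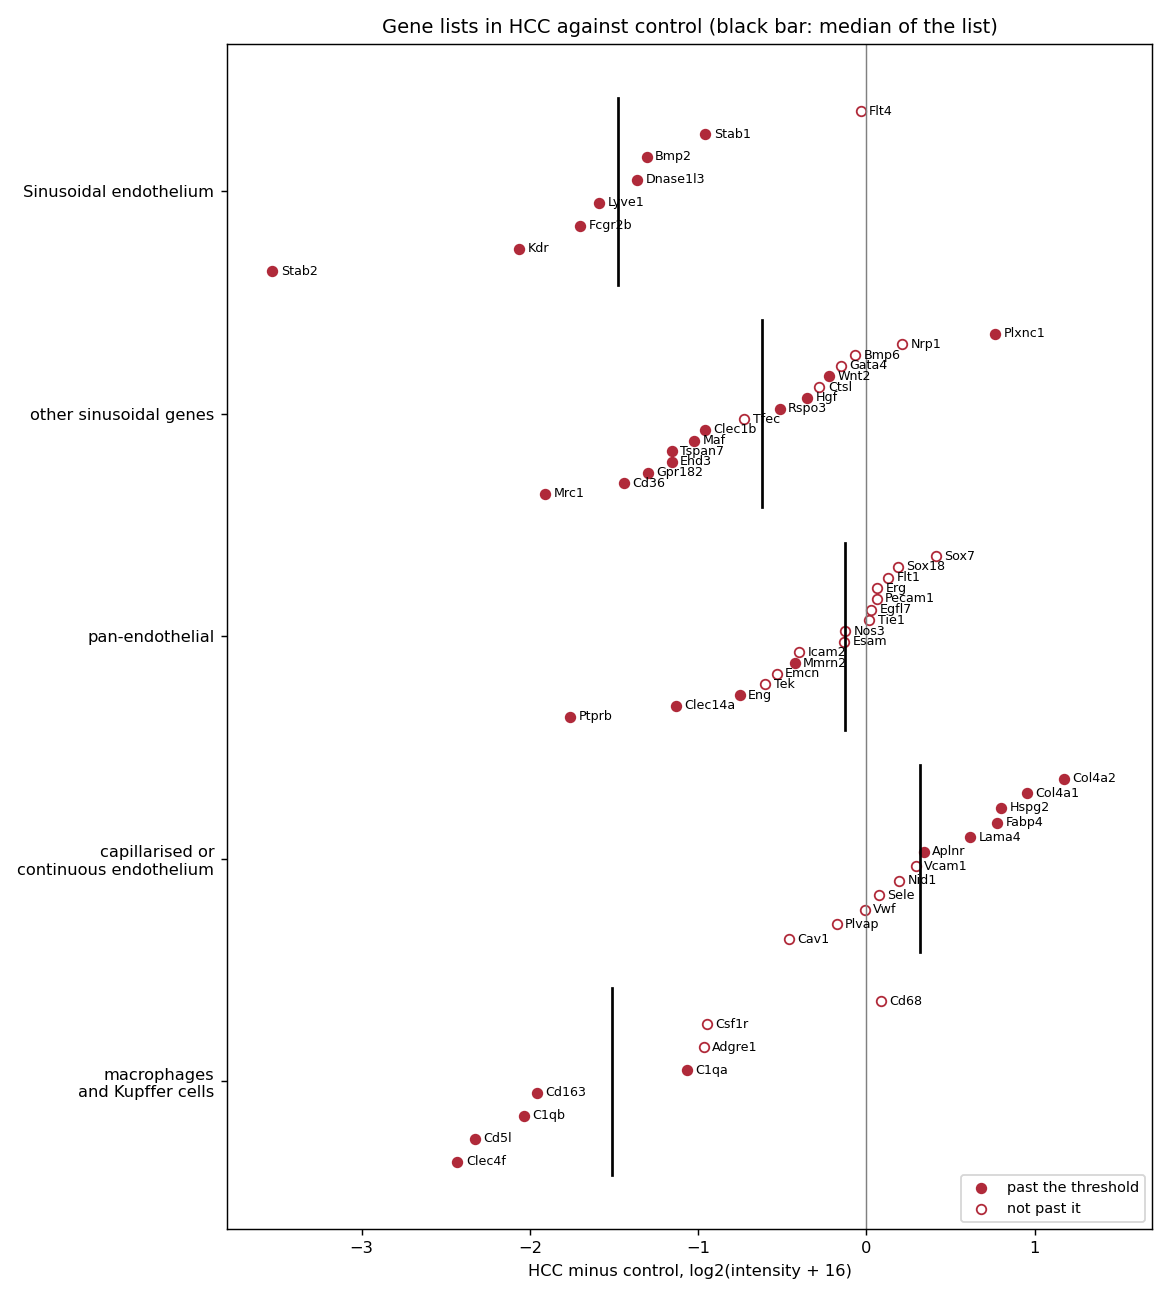
Difference of HCC from control (log2, horizontal axis) for each measured gene of the members, 3 other endothelial lists and the macrophage list; each point is 1 gene at its brightest probe set, filled where called, and the black bar is the list's median. The member median is -1.47 and the pan-endothelial median -0.13.

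The members differed among themselves across the 12 arrays. The log2 levels of Stab2 correlated with those of Kdr at 0.959 and of Fcgr2b at 0.925 (Pearson, 12 arrays, described without a test, since all share the 4 stages and the arrays' RNA quality). Stab1 correlated with the other member probe sets at 0.14 (the dim Flt4) to 0.75 (Stab2), and Flt4 at 0.10 to 0.54. The 2 probe sets of Lyve1 correlated at 0.981 and those of Bmp2 at 0.976. HCC array 2 was the highest HCC array on 9 of the 11 probe sets and array 1 the lowest on 7. A mean profile was taken from the standardized log2 levels of the 7 member genes with a mean intensity of at least 64, without Flt4. Of 7768 named genes compared, those most like this profile were Angptl6 (0.9918), Mospd3 (0.9887), Bbox1 (0.9885), Gnmt (0.9878) and Poldip2 (0.9878). Gnmt averaged 136 ± 138 in HCC and 2204 ± 75.3 in control (SD, n = 3 each). Those most like Stab2 were Slc26a1 (0.9933), Msrb1 (0.99) and Poldip2 (0.9879).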

How the data were processed

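RNA of 12 rat samples, 3 per group, was measured on single-colour arrays, with groups and replicate numbers from the labels. The values are linear intensities per probe set as the authors deposited them; MAS5 and RMA appear in the submitters' processing notes, and no source used here says which made the values. All 12 columns of values were used. Of 31099 probe sets, 57 array controls were left out. Symbols came from the platform annotation (20826 probe sets with 1 gene, 436 with several, 9780 with none), checked against RefSeq GRCr8.

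Values were analysed as log2(intensity + 16), which understates changes of dim probe sets: 33.9% to 35.8% of values lay under 16. The fit was limma 3.58.1 (lmFit, eBayes, R 4.3.3) over all 12 arrays, with 2-sided tests and Benjamini-Hochberg adjustment over 31042 probe sets. A fit takes 1 spread per probe set from all groups, and the median SD per probe set was 0.0712 for control, 0.0804 for hepatitis, 0.0652 for cirrhosis and 0.144 for HCC arrays. Arrays give no count of molecules, so their number limits the precision. Listed genes are represented by the probe set with the highest mean. The fit was tried on simulated data with 1 spread per probe set for all groups. Such data cannot test the effect of the wider HCC spread.

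The members and lists were chosen with earlier results of these data known. All member probe sets are named, and from each list up to 4 called genes by size of change or else the gene with the smallest p. The genes of most similar pattern are those with the highest Pearson correlation among named genes with a mean intensity of at least 64. Other added constants, quantile normalization, a filter on dim probe sets, 1 probe set per gene, a replicate block, fits of the 2 groups compared alone and leaving out each array were alternatives. Tables used pandas 2.3.3 and numpy 2.4.6 under Python 3.11.15, and figures matplotlib 3.10.9.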

Additional observations from a re-analysis of the deposited data

How the results depend on the processing

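Of 55 member differences, 19 were called and 14 of these stayed called under all settings that could be run; none of the 55 changed sign while called. The exceptions were Stab1 in HCC and in cirrhosis, Lyve1 1382732_at in HCC against control and against cirrhosis, and Kdr 1397868_at in HCC. In cirrhosis against control, 1 member probe set was called over all arrays, 0 with the replicate block and 3 in a fit of the 2 groups alone (Stab1, Stab2 and Fcgr2b). Of all 31042 probe sets, these fits called 1125, 717 and 4949. Leaving out 1 array gave 0 to 1 called in hepatitis (Stab1, adjusted p = 0.05, without HCC array 1), 0 to 2 in cirrhosis, 9 to 10 in HCC against control, 8 to 9 in HCC against cirrhosis, 0 to 0 in cirrhosis against hepatitis and 8 to 10 for any stage. Replicate numbers gave no clear sign of pairing. For 18 same-numbered pairs, the correlation of their deviations from the group means had a median of -0.0108 (-0.225 to 0.34), and 2 exceeded 0.1. For 36 pairs with different numbers the median was 0.0101, and 4 exceeded 0.1. With the replicate block Stab1 in cirrhosis (adjusted p = 0.0729) and Kdr 1397868_at in HCC (0.054) were not called. Values near the added constant, Flt4 and the HCC arrays of Stab2, limit what can be read from fold changes. The cause of these changes was not tested.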
